A study of Mus musculus with 7 samples.

Results

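N-glycans are branched sugar chains that are joined to asparagines of proteins entering the endoplasmic reticulum (ER), and antibodies, the main product of plasma cells, carry them on their heavy chains. The chain is first built on the lipid dolichol from activated sugars, moved whole onto the protein, trimmed of glucose in the ER while the protein folds, and then trimmed of mannose, branched and capped with galactose, fucose and sialic acid in the Golgi. Sialic acid and core fucose on the antibody Fc region are known to affect how Fc receptors bind it. The genes described here are 48 enzymes, enzyme subunits and transporters of this route, listed by name and not by their values, out of 48795 mouse genes in the deposited table. All 48 were found by gene ID, and all 48 were among the 11573 genes high enough to be tested. They were divided by function into 27 genes of precursor assembly, 10 of trimming and 11 of Golgi branching, capping and sugar transport, called capping for short.

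The libraries were bulk RNA sequencing of spleen cells from female wild-type C57BL/6 mice aged 8 to 12 weeks, immunised intravenously with sheep red blood cells and analysed on day 10. Cells were enriched for B cells with beads against CD43, a protein that many plasma cells also carry, and sorted either as memory B cells (MBC, B220+ CD138- IgD- CD38+ CD273+, 3 libraries) or as plasma cells (PC, B220lo CD138+ IgD-, 4 libraries). There is no unimmunised or naive group, and no transgene or reporter is named for these mice. The sample titles hold 4 codes with 2 prefixes, and 3 of the codes occur in both groups. MBC replicate 3 and PC replicate 4 share a code and are the only libraries with its prefix. What the codes mark is not stated, and the libraries were not treated as paired. The labels do not say that the libraries came from separate animals, so the p-values measure only the spread between these samples, and a smaller number of expressing cells cannot be told apart from less RNA per cell.

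Values are given as scaled TPM. The deposited TPM (transcript abundance) relate a transcript's reads to its length and to the library total. They keep no read totals, so the depth behind each value is unknown, and a gene without signal is described as listed at 0. Immunoglobulin transcripts took 1.65 to 3.16% of the TPM in the MBC libraries and 49.4 to 55.9% in the PC libraries, so each library was rescaled by its median ratio over 9305 genes expressed in all 7 libraries. A gene was called when its Benjamini-Hochberg adjusted p from limma over all 11573 genes was under 0.05 and its log2 fold change, PC minus MBC on log2(scaled TPM + 1), was at least 1 in size. That scale understates the change of genes with low values.

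The sorted identities were checked on markers. All 8 plasma cell markers were called higher in PCs, and their summed level was 10011 to 16969 scaled TPM against 229 to 388 in MBCs. Of 8 B cell and memory markers 5 were called lower in PCs, with sums of 1251 to 3753 in MBCs and 415 to 486 in PCs. The library labelled MBC replicate 3, the only MBC library with its title prefix, stood apart. It had 18061 genes above 0 against 12983 and 11527 in the other MBC libraries, the lowest B cell marker sum, a proliferation marker sum of 1062 against 184 and 222, and a germinal centre marker sum of 664 against 244 and 270. Its correlation with the PC libraries (r of 0.70 to 0.777 across genes, which are not independent replicates) exceeded its correlation with the other MBC libraries (0.687 and 0.681). Cd38 was at 6.77 in MBC replicate 3, against 130 and 186 in the other MBC libraries and 9.89 to 21.3 in PCs. Pdcd1lg2, which encodes CD273, was at 2.59 against 43.3 and 24.4, and at 0 to 2.84 in PCs. Ccr6 was at 2.26 against 108 and 136, and at 0.787 to 2.98 in PCs. For the other 5 B cell and memory markers every PC library was below every MBC library. Results are therefore also given without MBC replicate 3. Mitochondrial transcripts took 19.7 to 33.5% of the TPM in MBCs and 8.10 to 9.80% in PCs. Erythroid markers summed to 4524 in MBC replicate 2 and to 0.32 to 122 in the other libraries, with Klf1 at or near 0 in every library. T cell markers summed to 12.4 to 26.3 in PCs and 0.0494 to 2.02 in MBCs. Cd3e, 1 of the 2 tested, was called higher in PCs. Thy1, not called, had means of 2.72 in PCs and 0.213 in MBCs. PC means were also higher for Cd3d (0.83 against 0.026), Cd3g (1.34 against 0), Cd4 (2.32 against 0.037) and Cd5 (1.02 against 0.29). Cd8b1 had means of 0.144 in PCs and 0.078 in MBCs, and Cd8a was at 0 in 6 of the 7 libraries. Myeloid markers summed to 44.3 to 100.6 in PCs and 2.69 to 38.3 in MBCs, but the difference lay in Fcer1g, the 1 of 4 tested that was called. The other 3 had negative fold changes (Lyz2 -0.29, Csf1r -0.96 and Itgam -0.37), and S100a9 was at 0 throughout. The part of these features in the results was not tested.

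The comparison asks which steps of N-glycan production differ in transcript level between the memory and the antibody-secreting outcome of the response. Gfpt1, Alg2, Alg5, Alg14, Mogs, Ganab, Man1c1, Man2a1, Mgat1, Mgat2 and Fut8 were higher in PCs, and they came from all 3 steps. In all, 11 of the 48 genes were called higher in PCs, where 6.41% of all tested genes were, and 0 were called lower, where 2.14% of all tested genes were. At an unadjusted limma p under 0.05, 26 genes were higher and 0 were lower, against 15.3% and 8.93% of all tested genes. The median log2 fold change was 1.29 over the 48 genes and 0.14 over all tested genes, and 37 of the 48 were positive. Every PC library exceeded every MBC library for 21 of the 48 genes, an arrangement seen for 13.0% of all tested genes, and the reverse held for Mgat5 alone and for 8.68% of all tested genes.

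The count depended on the libraries, the scaling and whether libraries were matched by label. Without MBC replicate 3, 18 of 47 testable genes were called higher, where 15.1% of all genes then were, and the 18 included all 11 genes above together with Gnpnat1, Uap1, Gmppb, Dpm3, Alg1, Alg6 and Prkcsh. The count was 7 without PC replicate 1, where 583 of 11254 tested genes were called higher, against 742 of 11573 with all libraries. It was 5 without PC replicate 2, 3 or 4, where 456 of 11304, 508 of 11186 and 477 of 11268 tested genes were. A fit that matched libraries by replicate number called 2 higher (Gfpt1 and Fut8), where 390 of all 11573 genes were. PC replicate 4 has no MBC library of its number, so it added nothing to that estimate. A fit that matched libraries by title code called 4 higher (Gfpt1, Alg2, Alg5 and Fut8), where 434 of all 11573 genes were. PC replicate 2 has no MBC library of its code and likewise added nothing. On the TPM as deposited, where the median of all genes moved from 0.14 to -0.91, 4 genes were called higher (Gfpt1, Alg2, Alg5 and Fut8) and 4 lower (Pmm2, Man2a2, Mgat5 and Slc35a1), against 4.08% and 26.1% of all genes. The median of the 48 genes lay 1.12 above that of all genes there and 1.15 above it after scaling.

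**Figure D1:**
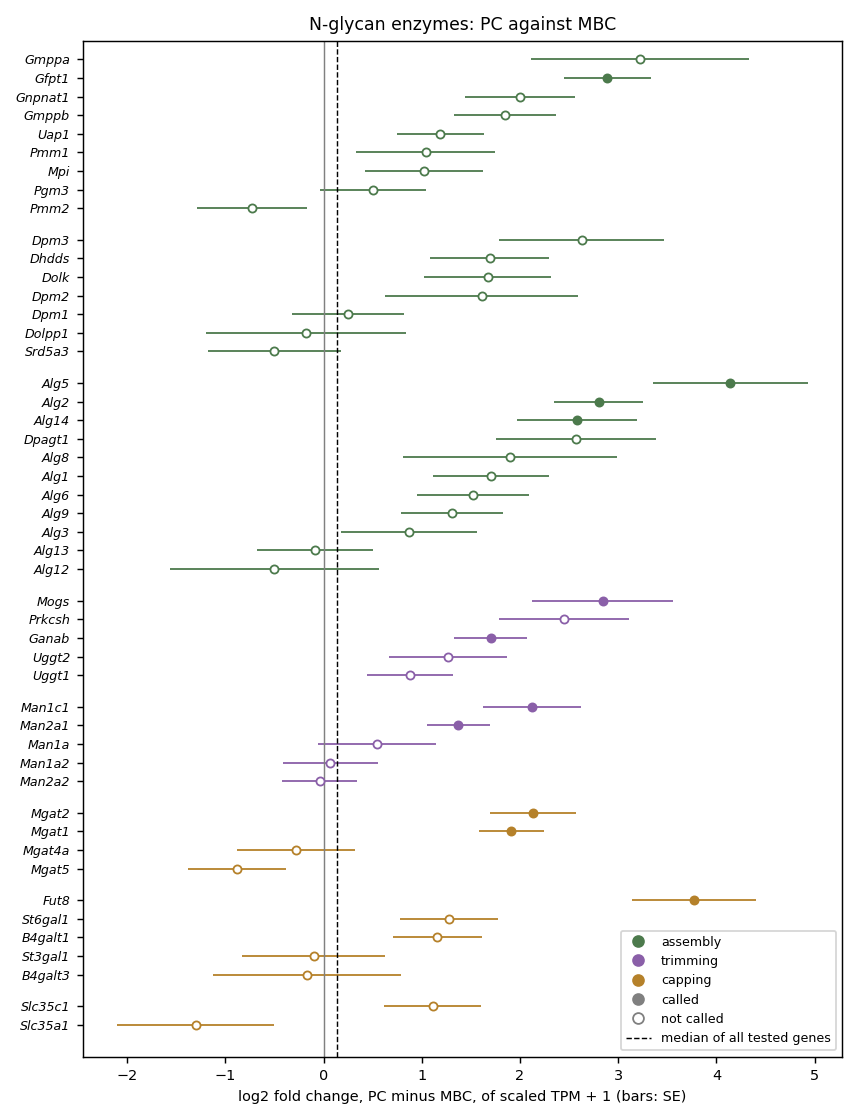
Log2 fold change of each of the 48 genes, PC minus MBC, on log2(scaled TPM + 1), ordered by function from sugar supply at the top to Golgi transporters at the bottom, with bars for the standard error (3 MBC and 4 PC libraries). Filled points are the 11 called genes, all right of 0, and the dashed line is the median of all tested genes at 0.14.

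Assembly begins with the supply of activated sugars. Of the 9 genes that make UDP-GlcNAc and GDP-mannose, 1 was called higher, where 6.41% of all tested genes were. Their median log2 fold change was 1.19. Gfpt1 (ENSMUSG00000029992, chr6:87042846-87092197, GRCm38, plus strand) encodes the rate-limiting enzyme of the hexosamine pathway, which leads to UDP-GlcNAc. It stood at 17.1, 5.21 and 11.9 scaled TPM in MBC replicates 1, 2 and 3, and at 115, 68.0, 94.9 and 63.4 in PC replicates 1 to 4. All PC libraries lay above all MBC libraries, with means of 85.3 ± 24.0 (SD, n = 4) and 11.4 ± 5.95 (SD, n = 3), a 7.49-fold difference. The log2 fold change was 2.89 (SE 0.44, limma adjusted p = 0.00328), and the gene was called under each of the 15 alternative settings, at 1.63 to 3.20.

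The following enzymes of the same pathway had fold changes in the same direction that did not pass the test with all libraries. Gnpnat1, which acetylates glucosamine phosphate, had a log2 fold change of 2.00 (adjusted p = 0.0579), and Uap1, which completes UDP-GlcNAc, had 1.19 (adjusted p = 0.139). For both, the groups did not overlap and the call was made without MBC replicate 3 (adjusted p = 0.0236 and 0.0149). Pgm3, the mutase between them, was at 0.50 with overlapping groups.

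For GDP-mannose, Mpi (1.02), which makes mannose 6-phosphate, was not called. The mutase paralogs Pmm1 and Pmm2 pointed in opposite directions, at 1.04 and -0.73, and neither was called. Pmm1 was at 1.29, 0 and 6.34 in MBCs and 2.31, 4.86, 3.85 and 7.08 in PCs. Pmm2 was at 28.0, 84.5 and 17.3 in MBCs, highest in replicate 2, and at 32.3, 13.0, 20.3 and 20.5 in PCs, and the groups overlapped for both genes. Gmppb, the catalytic subunit of GDP-mannose pyrophosphorylase, was at 1.68, 0.789 and 2.64 in MBCs and 5.79, 12.5, 6.74 and 9.62 in PCs (log2 fold change 1.85, adjusted p = 0.0601, and 0.026 without MBC replicate 3). Its regulatory partner Gmppa had 3.22 with an SE of 1.11 (adjusted p = 0.114). The MBC values of Gmppa were 95.7, 0.506 and 18.7 against 176, 151, 90.9 and 121 in PCs, so MBC replicate 1 reached the PC range and MBC replicate 2 was near 0. Without MBC replicate 1 the log2 fold change was 4.55 and called (adjusted p = 0.0163), and without MBC replicate 2 it was 1.56 (adjusted p = 0.194).

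Dolichol supply gave 0 called genes of 7, where 6.41% of all tested genes were called higher and 2.14% lower. At an unadjusted limma p under 0.05, 3 were higher and 0 lower (15.3% and 8.93% of all tested genes). The median was 1.61. Dhdds, a subunit of the enzyme that elongates the lipid, had a log2 fold change of 1.69, and Dolk, which phosphorylates dolichol, had 1.67. Dpm1, the catalytic subunit of dolichol-phosphate mannose synthase, was at 0.25, while its stabilising subunits Dpm2 and Dpm3 were at 1.61 and 2.63. Of these Dpm3 had no overlap between groups, at 0.445, 16.7 and 18.1 in MBCs and 35.6 to 79.0 in PCs, and was called without MBC replicate 3 (adjusted p = 0.0347, against 0.0911 with it). Srd5a3, which acts in the reduction of polyprenol, and Dolpp1, which recycles the carrier, were at -0.50 and -0.18 with overlapping groups. Dolpp1 ranged from 0 to 30.4 within the MBC libraries alone.

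Lipid-linked assembly held 3 called genes of 11, where 6.41% of all tested genes were called higher, and a median of 1.70. Alg5 (ENSMUSG00000036632, chr3:54735539-54751318, plus strand), which makes the dolichol-phosphate glucose used for the terminal glucoses, had the largest fold change of the 48 genes. It was at 0.83, 0 and 10.4 in MBC replicates 1, 2 and 3 and at 55.4, 69.2, 24.5 and 53.6 in PC replicates 1 to 4. MBC replicate 3 was closest to the PCs, and the groups did not overlap. The log2 fold change was 4.14 (SE 0.79, adjusted p = 0.0104) with it and 5.04 (adjusted p = 7.7e-04) without it, and the call was lost in 2 of 15 alternatives.

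Alg2 (ENSMUSG00000039740, chr4:47465067-47474333, minus strand), a mannosyltransferase of the cytosolic face of the ER, was at 3.84, 1.93 and 3.94 in MBCs and 19.2, 37.3, 24.7 and 32.8 in PCs. The lowest PC library was well above the highest MBC library, and the means differed 8.80-fold (28.5 ± 8.12, SD, n = 4, against 3.24 ± 1.13, SD, n = 3). The log2 fold change of 2.80 (SE 0.45, adjusted p = 0.00408) lost its call in 1 of 15 alternatives.

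Alg14 (ENSMUSG00000039887, chr3:121291773-121363094, plus strand) anchors the enzyme that adds the second GlcNAc, and Alg13 is its catalytic partner. Alg14 was at 2.45, 0 and 2.08 in MBCs and 8.31, 9.77, 21.2 and 12.5 in PCs, without overlap (log2 fold change 2.58, SE 0.61, adjusted p = 0.0298). That call was lost in 12 of the 15 alternatives, where the adjusted p reached 0.125. Alg13 was the assembly gene nearest to a log2 fold change of 0, at -0.09. Its values were 1.04, 6.91 and 5.53 in MBCs and 3.52, 3.57, 3.79 and 2.97 in PCs, so the PC libraries fell within the MBC range, and its sign turned to 0.26 without MBC replicate 2 and to 0.13 without MBC replicate 3.

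The other glycosyltransferases of this group were not called. Dpagt1, which starts the chain and is the target of tunicamycin, had 2.57 (adjusted p = 0.0875) with no overlap, and Alg1, which adds the initial mannose, had 1.70 (adjusted p = 0.116). The luminal mannosyltransferases Alg3, Alg9 and Alg12 had 0.87, 1.31 and -0.50, and the glucosyltransferases Alg6 and Alg8 had 1.52 and 1.90. Alg12 was at 114 in MBC replicate 2, against 2.16 and 4.42 in the other MBC libraries and 5.44 to 9.23 in PCs. That library also carried the high erythroid marker sum, and a link to Alg12 was not tested.

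**Figure D2:**
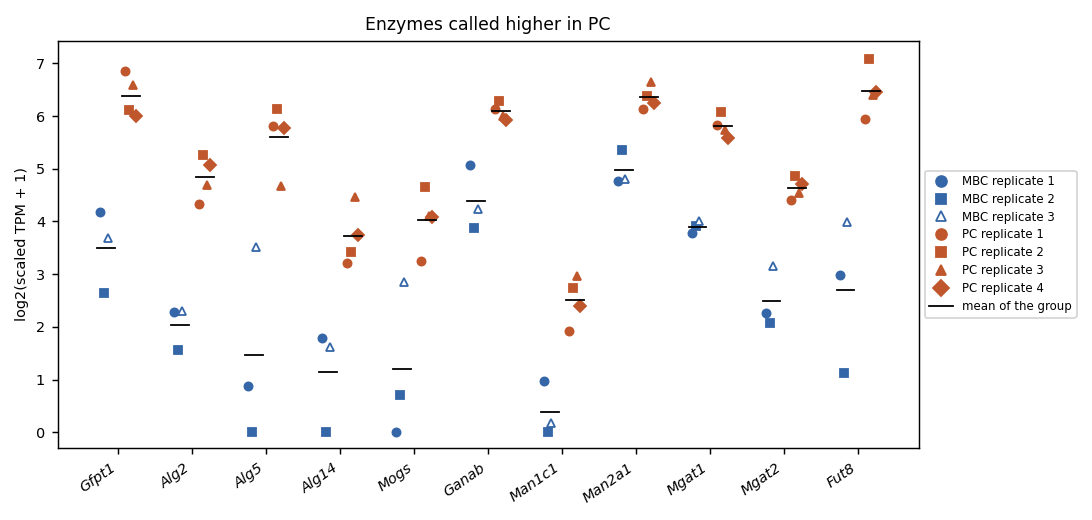
Level of the 11 called genes in every library, as log2(scaled TPM + 1), with MBCs in blue, PCs in orange, a symbol for each replicate number and an open symbol for MBC replicate 3; black lines are group means. For each gene the lowest PC library lies above the highest MBC library, and the gap is narrowest for Mogs.

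Promoter windows from RefSeq (GRCm38.p6, 250 bases before to 50 after each start) were searched on both strands for motifs of the unfolded protein response, which is known to act on secretory genes in plasma cells. Windows were found for 41 of the 48 genes, 50 windows in all. The letters TGACGTGG were in 0 of the 50 windows and in 0.676% of all 32851 windows. The shorter GACGTG, which is contained in that motif, was in 7 (14.0%, against 6.38% of all windows), of Gfpt1, Pgm3, Uap1, Dhdds, Dpm2, Mogs and Slc35c1, of which 2 were called. CCAAT followed by 9 bases and CCACG was in 1 window, of Alg12 (2.00%, against 0.119% of all), and ATTGG followed by 1 base and CCACG was in 0, against 0.0365% of all. These matches describe the letters only. The sequences of Gfpt1 and Mogs are shown because they were the called genes with a match, a choice made after their values were seen, and that of Alg12 because it held the longest motif. Each is written along the strand of its gene up to the base before the start, with the motif in capitals (for Gfpt1 on the opposite strand, so that it reads CACGTC), 122 to 117 bases before the start in Gfpt1, 33 to 28 in Mogs and 220 to 202 in Alg12.
Gfpt1, chr6:87042696-87042845, plus strand: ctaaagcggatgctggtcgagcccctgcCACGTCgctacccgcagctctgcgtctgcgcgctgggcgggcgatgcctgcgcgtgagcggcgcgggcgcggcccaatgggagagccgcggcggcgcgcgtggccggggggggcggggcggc
Mogs, chr6:83115356-83115505, plus strand: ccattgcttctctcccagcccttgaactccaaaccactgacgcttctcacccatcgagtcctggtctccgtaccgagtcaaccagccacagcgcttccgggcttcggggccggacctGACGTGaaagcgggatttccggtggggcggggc
Alg12, chr15:88819319-88819568, minus strand: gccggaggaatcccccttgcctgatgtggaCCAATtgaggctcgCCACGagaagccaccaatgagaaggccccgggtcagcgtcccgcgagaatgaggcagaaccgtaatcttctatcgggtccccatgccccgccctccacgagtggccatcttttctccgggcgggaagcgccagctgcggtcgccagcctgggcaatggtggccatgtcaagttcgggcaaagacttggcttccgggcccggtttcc

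Trimming had 4 called genes of 10, where 6.41% of all tested genes were called higher, and a median of 1.32. For 5 of its genes every PC library exceeded every MBC library, as for 13.0% of all tested genes. In the ER part, Mogs (ENSMUSG00000030036, chr6:83115496-83118898, plus strand), which encodes glucosidase I and removes the outermost glucose, was at 0, 0.640 and 6.26 in MBCs and 8.56, 24.3, 16.3 and 15.9 in PCs. MBC replicate 3 approached PC replicate 1 without reaching it. The log2 fold change was 2.84 (SE 0.72, adjusted p = 0.0404), or 3.55 (adjusted p = 0.00411) without MBC replicate 3, and the call was lost in 13 of the 15 alternatives.

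Ganab (ENSMUSG00000071650, chr19:8898071-8916672, plus strand), the catalytic subunit of glucosidase II, was at 32.5, 13.7 and 17.9 in MBCs and 69.7, 77.5, 63.4 and 59.6 in PCs, a 3.17-fold difference of the means with no overlap. Its log2 fold change was 1.70 (SE 0.37, adjusted p = 0.0212), with the call lost in 10 of 15 alternatives. Prkcsh, the other subunit of the same enzyme, was at 7.63, 0.708 and 12.3 in MBCs and 26.1 to 34.3 in PCs. Its log2 fold change of 2.45 missed the threshold with all libraries (adjusted p = 0.0502) and passed it without MBC replicate 3 (adjusted p = 0.0128).

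Uggt1, the folding sensor that puts glucose back on unfolded glycoproteins, had 0.88 (adjusted p = 0.252). Its values were 25.3, 7.76 and 14.5 in MBCs and 25.9, 29.6, 28.2 and 25.2 in PCs, so that MBC replicate 1 lay at the lower end of the PC range. The paralog Uggt2 had 1.27 (adjusted p = 0.232) at much lower levels, 0.368, 0 and 0.741 in MBCs and 6.40, 1.04, 3.46 and 0.613 in PCs.

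The Golgi mannosidases differed among themselves. Man2a1 (ENSMUSG00000024085, chr17:64600736-64755110, plus strand), alpha-mannosidase II, which acts after the branching enzyme Mgat1, was at 26.3, 40.1 and 27.02 in MBCs and 69.1, 82.6, 99.9 and 74.6 in PCs. The groups did not overlap (log2 fold change 1.37, SE 0.32, adjusted p = 0.0298), and the call was lost in 10 of 15 alternatives. Its paralog Man2a2 was the trimming gene nearest to 0, at -0.04, with 38.6, 49.8 and 21.8 in MBCs and 38.6, 34.2, 28.8 and 34.0 in PCs, where the PC libraries lay inside the MBC range.

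Man1c1 (ENSMUSG00000037306, chr4:134561690-134704290, minus strand), one of 3 Golgi class I mannosidases listed, was at 0.971, 0 and 0.132 in MBCs and 2.78, 5.63, 6.78 and 4.28 in PCs. All PC libraries were higher, at a low level (log2 fold change 2.12, SE 0.50, adjusted p = 0.0306), and the call was lost in 11 of 15 alternatives. The far more abundant Man1a was at 210, 220 and 33.5 in MBCs and 190, 166, 162 and 160 in PCs. MBC replicates 1 and 2 matched or exceeded the PCs while MBC replicate 3 was several-fold below them, and the log2 fold change of 0.54 (adjusted p = 0.63) became -0.34 without that library. Man1a2 was at 35.7, 57.0 and 17.6 in MBCs and 29.4, 49.6, 45.9 and 21.6 in PCs (0.07, and -0.37 without MBC replicate 3), with overlapping groups. Man1a fell below 0 on the deposited TPM (-0.77) and with quantile normalization (-0.07), and Man1a2 on the deposited TPM (-1.22) and with immunoglobulin genes removed (-0.21).

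Branching and capping held 3 called genes of 11, where 6.41% of all tested genes were called higher. The median was 1.11, or 0.65 without MBC replicate 3, with 6 positive and 5 negative fold changes. Mgat1 (ENSMUSG00000020346, chr11:49244191-49263030, plus strand), which commits a glycan to the hybrid or complex type, was at 12.8, 14.0 and 15.1 in MBCs and 56.0, 66.6, 52.3 and 47.3 in PCs. Replicates of both groups were tight, and the means of 14.0 ± 1.16 (SD, n = 3) and 55.5 ± 8.19 (SD, n = 4) differed 3.97-fold (log2 fold change 1.91, SE 0.33, adjusted p = 0.00577). Mgat2 (ENSMUSG00000043998, chr12:69184157-69186770, plus strand), which starts the next antenna, was at 3.80, 3.19 and 7.91 in MBCs and 20.1, 28.0, 22.2 and 25.3 in PCs. These groups did not overlap either (log2 fold change 2.13, SE 0.44, adjusted p = 0.0154). The calls were lost in 3 and 6 of the 15 alternatives.

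The enzymes of the further antennae did not follow them. Mgat4a was at 46.0, 29.4 and 7.10 in MBCs and 13.5, 15.0, 28.1 and 16.8 in PCs, with overlap (log2 fold change -0.28, and -1.02 without MBC replicate 3). Mgat5 was at 3.94, 2.70 and 3.16 in MBCs and 0.676, 2.10, 0.615 and 2.38 in PCs. It was the only one of the 48 genes with every PC library below every MBC library, and its log2 fold change of -0.88 was not called (SE 0.50, adjusted p = 0.316), although it was called lower on the deposited TPM at -1.80.

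Fut8 (ENSMUSG00000021065, chr12:77238125-77476338, plus strand), the only enzyme of core fucosylation, had the second largest fold change of the 48 genes. It was at 6.96, 1.17 and 14.8 in MBCs and 60.7, 134, 84.0 and 86.9 in PCs. The lowest PC library was several-fold above the highest MBC library, with a mean of 91.4 ± 30.7 (SD, n = 4) against 7.65 ± 6.85 (SD, n = 3). The log2 fold change was 3.77 (SE 0.63, adjusted p = 0.00525), or 4.37 (adjusted p = 0.0019) without MBC replicate 3, and Fut8 was called in each of the 15 alternatives, at 2.58 to 4.40. Slc35c1, which carries GDP-fucose into the Golgi, had 1.11 (adjusted p = 0.20) with overlapping groups.

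St6gal1, which adds the sialic acid cap found on antibody glycans, was the most abundant of the 48 transcripts in PCs and the next most abundant after Man1a in MBCs, by group medians. Its values were 155, 372 and 70.5 in MBCs and 435, 333, 435 and 362 in PCs. MBC replicate 2 lay inside the PC range. Its log2 fold change was 1.28 (SE 0.50, adjusted p = 0.154), fell to 0.69 without MBC replicate 3, was called only without MBC replicate 2 (1.85, adjusted p = 0.0243) and was -0.04 on the deposited TPM.

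St3gal1, a sialyltransferase better known for O-glycans, was the capping gene nearest to 0, at -0.10. It was at 34.6, 64.5 and 5.16 in MBCs and 32.6, 21.6, 22.9 and 13.5 in PCs, so the PC libraries fell within the wide MBC range, and the value was -1.09 without MBC replicate 3 and 0.01 with quantile normalization. Slc35a1, the CMP-sialic acid transporter, had the lowest fold change of the 48 genes at -1.30 (SE 0.80, adjusted p = 0.358). It was at 103 in MBC replicate 2 against 10.4 and 7.61 in the other MBC libraries and 5.90 to 11.6 in PCs.

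The galactosyltransferase B4galt1 was at 16.8, 26.6 and 7.47 in MBCs and 40.4, 33.0, 34.2 and 32.5 in PCs. The groups did not overlap, but the log2 fold change of 1.16 was not called (adjusted p = 0.149) and was -0.10 on the deposited TPM. B4galt3 was at 0.554, 25.9 and 4.77 in MBCs and 15.9, 3.15, 2.56 and 2.76 in PCs (-0.17), with 1 library of each group far from the rest.

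**Figure D3:**
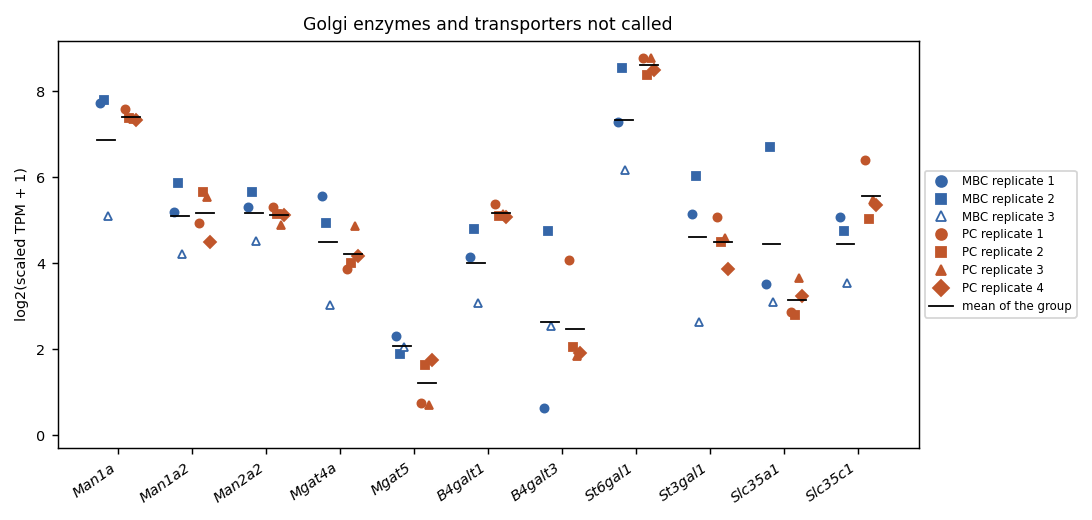
Level of the 11 Golgi mannosidases, branching and capping enzymes and transporters that were not called, as log2(scaled TPM + 1), with the same colours and symbols by replicate and black lines for group means. MBC replicate 3 (open triangles) is the lowest MBC library for 9 of the 11, all but Mgat5 and B4galt3, and Mgat5 is the 1 gene whose PC libraries all lie below the MBC libraries.

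Ratios of paired enzymes within a library do not move with the median scaling except through the added 1, and were described without a test. Of 10 pairs, 3 had no overlap between the groups, and in all 3 the ratio was higher in PCs. How often other gene pairs separate in this way was not computed. Man1c1 and Man2a1 were themselves called, and their partners Man1a2 and Man2a2 had log2 fold changes of 0.07 and -0.04. Their ratios therefore repeat those calls. The log2 ratio of Man2a1 over Man2a2 was -0.54, -0.30 and 0.30 in MBCs and 0.83, 1.25, 1.76 and 1.11 in PCs. The mean went from -0.18 ± 0.43 (SD, n = 3) to 1.24 ± 0.39 (SD, n = 4), from near parity of the paralogs to an excess of Man2a1. The ratio of Man1c1 over Man1a2 was -4.22, -5.86 and -4.04 in MBCs and -3.01, -2.93, -2.59 and -2.10 in PCs, so that Man1c1 was the minor transcript in both groups. The difference of 2.05 became 3.94 with a pseudocount of 0.1.

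The ratio of St6gal1 over St3gal1 was 2.13, 2.51 and 3.54 in MBCs and 3.70, 3.88, 4.19 and 4.64 in PCs, with means of 2.72 ± 0.73 (SD, n = 3) and 4.10 ± 0.41 (SD, n = 4). MBC replicate 3 lay next to the lowest PC library. The difference of 1.38 was 0.34 with quantile normalization. The remaining 7 pairs overlapped, with differences of means between -1.77 for Pmm2 over Pmm1 and 1.33 for B4galt1 over B4galt3. These depended on single libraries: the former was -0.46 without MBC replicate 2 and -2.92 without MBC replicate 3, and the latter 2.38 without MBC replicate 1 and 0.66 without MBC replicate 2. Mgat1 over Mgat2 was close in both groups (1.41 ± 0.50, SD, n = 3, and 1.18 ± 0.23, SD, n = 4).

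**Figure D4:**
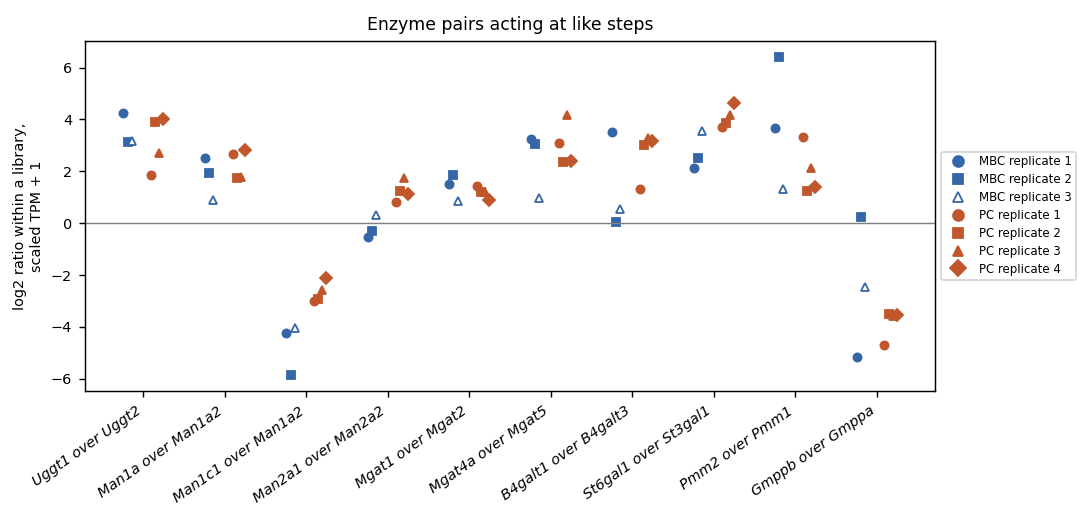
Log2 ratio of the paired enzymes within each library, from scaled TPM + 1, with MBCs in blue, PCs in orange and MBC replicate 3 as an open triangle; 0 marks equal levels. The PC points lie above all MBC points for Man1c1 over Man1a2, Man2a1 over Man2a2 and St6gal1 over St3gal1, and overlap them in the other 7 pairs.

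By step, the median level separated the groups for assembly and overlapped for trimming and capping. The median of log2(scaled TPM + 1) over the 27 assembly genes was 1.80, 1.55 and 2.71 in MBCs and 3.64, 3.76, 3.92 and 3.75 in PCs, while that of all tested genes was 2.90 to 3.07 and 3.14 to 3.22. Over the 10 trimming genes it was 4.74, 3.50 and 4.09 in MBCs and 4.74 to 5.12 in PCs, with MBC replicate 1 level with the lowest PC library. Over the 11 capping genes it was 3.79, 4.75 and 3.11 in MBCs and 4.71 to 5.07 in PCs, where MBC replicate 2 reached the PC range. On the deposited TPM the groups overlapped for assembly too (1.95 to 3.63 in MBCs and 3.05 to 3.64 in PCs), and with quantile normalization they were separate for all 3 steps. By this median assembly was the lowest step in both groups, and in MBCs it lay below the median of all tested genes. By summed level, with its 27 genes, it exceeded trimming in every PC library (593 to 717 scaled TPM against 422 to 505) and both other steps in MBC replicate 3. Called genes made up 4 of 27 in assembly, 4 of 10 in trimming and 3 of 11 in capping, where 6.41% of all tested genes were called higher. Without MBC replicate 3 they made up 10 of 27, 5 of 9 and 3 of 11, where 15.1% of all genes were. Trimming fell to 0 called on the deposited TPM, with immunoglobulin genes removed, with either replicate block and without PC replicate 2, 3 or 4. In those fits assembly kept 1 to 3 called genes and capping 1 to 3. The difference between steps was not tested.

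**Figure D5:**
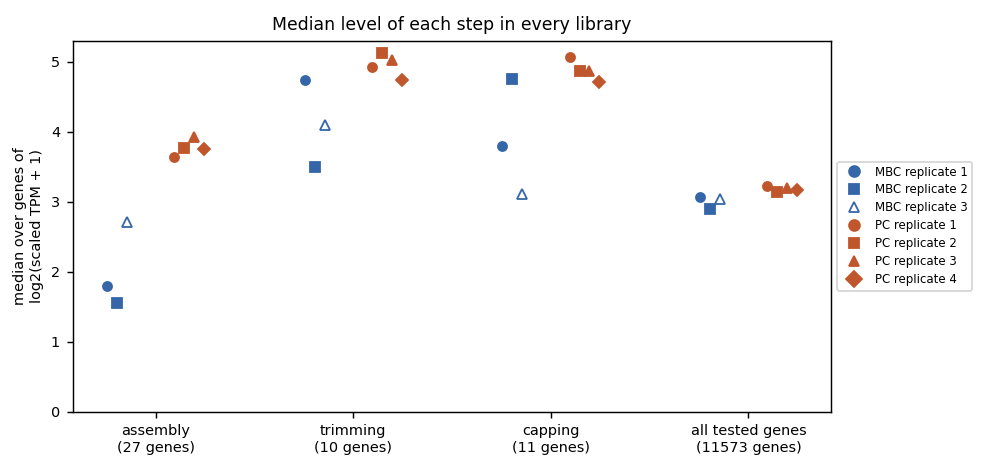
Median over genes of log2(scaled TPM + 1) for each step and for all tested genes in the 7 libraries. Assembly is at 1.55 to 2.71 in MBCs and 3.64 to 3.92 in PCs, and the trimming and capping medians of at least 1 MBC library reach the PC range.

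The MBC libraries varied more than the PC libraries in these genes. The median within-group SD on the log2 scale was 1.06 in MBCs and 0.44 in PCs over the 48 genes, and 0.91 and 0.47 over all tested genes. It was larger in MBCs for 42 of the 48 genes (87.5%) and for 77.5% of all tested genes. Under 1 scaled TPM lay 10, 15 and 2 of the 48 genes in MBC replicates 1 to 3 and 0 to 2 in PC libraries, and MBC replicate 2 alone had 8 listed at 0. Among all tested genes the share under 1 was 20.0, 27.1 and 10.4% in MBCs and 8.16 to 11.8% in PCs. Within assembly, MBC replicate 3 was the highest MBC library for 12 of 27 genes and MBC replicate 2 the lowest for 17, whereas within capping MBC replicate 3 was the lowest for 6 of 11.

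The remaining genes of the pathway were taken from a fixed list of 34, of which 26 were tested. Of these, 3 were called higher and 0 lower, where 6.41% and 2.14% of all tested genes were, with a median of 0.93. Without MBC replicate 3 the counts were 7 and 2 of 24, where 15.1% and 8.20% of all genes were called. The 2 lower were B4galt5, a galactosyltransferase, and Fpgt, of fucose salvage, which were not called with all libraries (-2.10 and -1.85, adjusted p = 0.0676 and 0.15). Man1b1, an alpha-mannosidase of the early secretory pathway, was at 1.19, 0.465 and 5.79 in MBCs and 22.6 to 38.9 in PCs (log2 fold change 3.53, SE 0.58, adjusted p = 0.00473). The other called genes make CMP-sialic acid. Nans, which forms sialic acid phosphate, had 2.89 (SE 0.77, adjusted p = 0.0488) and Cmas, which activates sialic acid, had 1.58 (SE 0.39, adjusted p = 0.0377), both without overlap between the groups. The oligosaccharyl transferase, which transfers the finished chain to the protein, had 8 of 12 subunits called higher, against 6.41% of all tested genes, and a median of 2.37. Its catalytic subunits differed, with Stt3a called at 2.43 (adjusted p = 6.8e-04) and Stt3b at -0.05 (adjusted p = 0.937).

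Exons of 19 of the 48 genes overlap another annotated gene (GENCODE M21), among them the called Man2a1, Mgat2 and Fut8 and the uncalled Man1a, Man2a2, Mgat5, St6gal1 and Slc35a1, each with a gene on the opposite strand. Whether the counting used strand is not given in the sources used here, so reads of the partner genes could be included in these values.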

How the data were processed

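Bulk RNA sequencing of 3 MBC and 4 PC libraries was analysed from the table of TPM that the authors deposited, rounded to 2 decimals. The submitters' processing notes name STAR 2.5.2a, RSEM 1.3.0, DESeq2 1.18.1 and GRCm38, without saying which step each served, and the annotation release and strand setting are not given in the sources used here. Gene symbols (48349 of 48795 IDs matched) and coordinates were taken from GENCODE M21 on GRCm38. There were 0 columns of no sample.

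For scaling, a per-gene geometric mean was taken across 9305 genes detected in all 7 libraries, and the median of a library's ratios to those means was its divisor. Genes reaching 1 deposited TPM in 3 or more libraries, 11573 in number, entered the test after a pseudocount of 1 and a log2 transform. The test was limma 3.58.1 (R 4.3.3) with a trended eBayes step and no covariate. A call needed a Benjamini-Hochberg adjusted p under 0.05 and a log2 fold change of at least 1 in size. The procedure was tested on simulated data of 11573 genes for this comparison. Recovery was 71 of 100 genes for a log2 change of 4 and 21 of 100 for a log2 change of 2. Of 11373 unchanged genes, 4 were called. In the libraries, the median within-group SD on the log2 scale over all tested genes was 0.91 in MBCs and 0.47 in PCs. Whether the recovery and the 4 calls hold under such unequal spread was not tested.

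The 15 alternatives were other scalings (deposited TPM, immunoglobulin genes removed, quantile), a pseudocount of 0.1, no filter, blocks by replicate number or by the code in the titles, only libraries of the more frequent title prefix, and leaving out each library. No 2 libraries were copies, with at least 99.3% of listed genes differing in any pair. Values in every library were given for called genes among the 3 largest changes of their role, for both genes of 10 pairs and for the gene nearest to 0 in each step. Other genes were given in brief, and Gnpnat1, Dpm3, Prkcsh, Alg12, Slc35a1 and Stt3b were singled out after their values were seen. The genes, lists, pairs and motifs were chosen with earlier results of these data known. Python 3.11.15, pandas 2.3.3, numpy 2.4.6 and matplotlib 3.10.9 served the other steps.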

Additional observations from a re-analysis of the deposited data

Results flagged for a closer look

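B4galt3, a galactosyltransferase, was at 15.9 scaled TPM in PC replicate 1, while the other PC libraries were at 2.56 to 3.15. The gap to the nearest other library was 0.955 of the whole range of the 4 PC libraries, above Dixon's critical value for a group of 4. It was the only one of the 48 genes with such a PC library, where chance alone would give about 2.4 at 1 in 20 groups.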

How the results depend on the processing

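Against 11 called higher and 0 lower with all libraries (assembly 4, trimming 4, capping 3), the count of genes higher in PCs was 4 on the TPM as deposited (trimming 0, capping 1, and 4 lower), 6 with immunoglobulin genes removed (trimming 0), 7 without the filter (assembly 2, trimming 2), 10 with quantile normalization and 9 with a pseudocount of 0.1. Over all genes, 742 of 11573 were called higher with all libraries and 472 of 11573 on the deposited TPM. The same count was 384 of 12332 with immunoglobulin genes removed and 437 of 21326 without the filter. It was 629 of 11573 with quantile normalization and 649 of 11573 with a pseudocount of 0.1. With the more frequent title prefix, 9 of 45 testable genes were called higher (trimming 2), against 1014 of 10250 over all genes. A replicate block by number left 2 (assembly 1, trimming 0, capping 1), and a replicate block by title code left 4 (trimming 0, capping 1). Over all 11573 genes these blocks called 390 and 434 higher. PC replicate 4 by number and PC replicate 2 by code were alone in a block and added nothing to the estimate. Alg14, Mogs, Ganab, Man1c1, Man2a1, Mgat1 and Mgat2 were not called under either block. Whether numbers or codes pair the libraries was checked by the correlation of deviations from the group means. It was 0.11, -0.04 and -0.08 for shared numbers and 0.11, 0.00 and 0.22 for shared codes. Libraries of different numbers gave -0.18 to 0.22, and those of different codes -0.18 to 0.15. The highest value was that of a shared code, MBC replicate 3 with PC replicate 4. With 3 shared codes the check could not decide on a pairing, and the main fit was left unpaired. Leaving out 1 library gave 5 to 18 called genes, 3 to 10 for assembly and 0 to 5 for trimming. In those fits 456 to 1624 of all tested genes were called higher. They also held fewer samples, and the cause of these changes was not tested. Gfpt1 and Fut8 were called in all 15 alternatives, and Alg2 in all but the block by number.

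Among the genes given with values in every library, 10 that were not called turned sign. On the deposited TPM, Uggt1 was -0.38, Man1a -0.77, Man1a2 -1.22, B4galt1 -0.10 and St6gal1 -0.04. Man1a2 was -0.21 with immunoglobulin genes removed and -0.10 with the block by title code, Man1a was -0.07 and St3gal1 0.01 with quantile normalization, and B4galt3 was 0.03 with a pseudocount of 0.1. With the block by number B4galt3 was 0.01 and St3gal1 0.11, and with the more frequent prefix Alg13 was 0.19, Man1a -0.32 and Man1a2 -0.15. Leaving out 1 library gave -0.70 to 0.26 for Alg13, -0.34 to 0.97 for Man1a, -0.37 to 0.42 for Man1a2, -0.37 to 0.18 for Man2a2, -1.02 to 0.22 for Mgat4a, -1.18 to 0.85 for B4galt3 and -1.09 to 0.58 for St3gal1. With a pseudocount of 0.1, the difference in Uggt1 over Uggt2 went from -0.39 to -1.68.

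The file holds no read depth, so the precision of low values, most of them in MBC replicates 1 and 2, could not be set.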
